A study of Mus musculus with 6 samples.

Results

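mmu_circRNA_44559 and mmu_circRNA_22673 are a pair of mouse circular RNAs that were lower in the hippocampus of aged mice after surgery and that the study also picked for qRT-PCR. Each is read by 1 probe of a circRNA microarray, ASCRP4011303 for circRNA_44559 and ASCRP4001023 for circRNA_22673, and the pairing of probe and name was taken from the study's list of the 10 most raised and the 10 most lowered circRNAs. They are 2 of the 14236 circRNA probes on the array. The list was ordered by the fold change between the groups on these same 6 arrays, so both circRNAs were chosen by the difference between the groups, which is given here as a description, with no test.

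A circRNA is a closed loop of RNA that is made when a downstream splice site is joined to an upstream one. The loop has no free end for exonucleases, so circRNAs tend to be stable, and the brain is a tissue that is rich in them. Some circRNAs bind miRNAs, short RNAs that pair through their seed with matching sites in other RNAs and lower the output of those RNAs. A circRNA with such sites can compete for the miRNA, which is the model that the study followed for this pair.

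The hippocampus of male C57Bl/6 mice aged 18 months was sampled on day 3 and hybridized to 6 arrays. Each array is taken here as 1 mouse, since the study does not state whether RNA was pooled. In the POCD group (postoperative cognitive dysfunction, 3 mice), an open tibial fracture was fixed with an intramedullary needle under isoflurane, and local anesthetics were given for pain. The control group had 3 mice without this operation. The methods describe a fear conditioning test with foot shocks before the tissue was stored, and do not say whether the control mice received isoflurane, so that fracture, anesthesia and analgesia cannot be told apart in this comparison. The tissue is whole hippocampus, with its neurons, glia and vessels together. Host genes of the probes, the genomic positions of these circRNAs and marker genes of the tissue were not analysed here.

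For each circRNA the study predicted 5 miRNAs with response elements, from software of the array maker that draws on TargetScan and miRanda. Of these 10 miRNAs, 8 had a mature sequence among the 1679 mouse names of the RefSeq table for GRCm38.p6, and mmu-miR-6952-5p and mmu-miR-6982-5p of circRNA_22673 are named only. The sequences are shown because the seeds are the part through which a site in the circRNA would be bound. Each is written from 5′ to 3′, with the seed (bases 2 to 8) in capitals. The miRNAs named for circRNA_44559 were as follows.
mmu-miR-1903: cCUUCUUCuucuuccugagaca
mmu-miR-207: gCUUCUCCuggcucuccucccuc
mmu-miR-6946-3p: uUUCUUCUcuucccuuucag
mmu-miR-6896-3p: uUUCUCUCucucaccuacaaac
mmu-miR-6976-3p: aUCUCCCUcccaacuccccag

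For circRNA_22673, 3 of the miRNAs had a sequence.
mmu-miR-7092-3p: uGUUCUUUguuuuguuugccuuag
mmu-miR-6957-3p: uGGAUCUCuuguuuucucuucc
mmu-miR-6986-5p: aGGGGAGCuagguagaaagcca

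The miRNAs of circRNA_44559 had a composition in common. All 5 seeds were made of C and U alone, which held for 32 (1.91%) of the 1679 mature miRNAs. Over the whole miRNA, the share of C and U lay between 76.2% and 90%, against a median of 50% for all mature miRNAs. Letters that pair with such seeds are purines throughout. None of the 3 miRNAs of circRNA_22673 had a seed of C and U alone. Their share of C and U was 75% for miR-7092-3p, 81.8% for miR-6957-3p and 22.7% for miR-6986-5p, so the last was of the opposite composition. The 8 seeds were all different. The closest were those of miR-1903 and miR-6946-3p, which share a run of 6 bases, UUCUUC. The seed of miR-7092-3p shares a run of 5 bases, UUCUU, with both of these, and is the nearest link between the miRNAs of the circRNAs. miR-1903 shares its seed with 1 other mature miRNA, miR-12183-5p, and miR-7092-3p with miR-6935-3p, while the other 6 seeds were not found in another mature miRNA of the table. This is a description of a list of predictions and was not tested.

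The genes of these miRNAs lie apart. miR-1903 is at chr8:128359251-128359272, within the span of Nrp1, a receptor for semaphorins and VEGF. miR-207 is at chr4:40722968-40722990 within the span of Dnaja1, a co-chaperone, and miR-6946-3p at chr14:20690684-20690703 within that of Sec24c, a COPII coat protein. miR-6896-3p is at chr1:34117408-34117429 within the span of Dst, a cytoskeletal linker, and miR-6976-3p at chr17:46553827-46553847 within that of the transcription factor gene Srf. For circRNA_22673, miR-7092-3p is at chrX:74317406-74317429 in Fam50a, miR-6957-3p at chr15:80646113-80646134 in Grap2 and miR-6986-5p at chr19:4623929-4623950 in Rce1, a protease of prenylated proteins. miR-6976-3p and miR-6986-5p are on the minus strand and the others on the plus strand. The table gives gene spans and not exons, so exonic or intronic position is not stated. The arrays did not measure the miRNAs.

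On the arrays, both circRNAs were read well above background, as were nearly all circRNAs. All 12 spots of the pair were marked by the scanner software as well above background, 0 were saturated and 0 carried an outlier flag for the spot or its surroundings. Of all circRNA probes, 98.3% to 99.5% per array were well above background, so this mark was not particular to the pair. The shares of saturated or flagged spots over all probes are not given here. The spot of circRNA_44559 had a background-subtracted intensity, on the linear scale of the scanner, of 811, 696 and 905 in the control mice. In the POCD mice it was 258, 432 and 283. The highest POCD array was below the lowest control array, before any scaling between arrays. The spot of circRNA_22673 read 828, 665 and 825 in the control mice and 204, 434 and 256 in the POCD mice. Again no POCD array reached a control array. After the scaling described below, groups did not overlap in this direction for 11.0% of the circRNAs tested. The share before scaling is not given here. The error that the scanner software gives was 10% of the intensity for each of these 12 spots, from 204 to 905 units. This share was the same for all of them, so it is not read here as a measured precision of each spot.

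To compare arrays, the log2 of each intensity was taken and reduced by the 75th percentile of the circRNA probes on that array, so that 0 stands for a spot brighter than 75% of the circRNA spots. circRNA_44559 was then at 1.42, 1.14 and 1.499 in the control mice and at -0.38, 0.34 and 0.081 in the POCD mice. The mean was 1.35 ± 0.19 (SD, n = 3) in control and 0.012 ± 0.36 (SD, n = 3) in POCD. The POCD mean was therefore near the 75th percentile and the control mean clearly above it. The difference was -1.34 on the log2 scale (standard error 0.21 from limma), which puts the POCD level at 39.5% of the control level. In whole tissue, fewer cells that hold a circRNA and less of it per cell cannot be told apart.

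circRNA_22673 was at 1.45, 1.07 and 1.37 in the control mice and at -0.72, 0.34 and -0.061 in the POCD mice on the same scale. The mean was 1.30 ± 0.20 (SD, n = 3) in control and -0.15 ± 0.54 (SD, n = 3) in POCD. The control mice were close to each other and the POCD mice spread more widely, from POCD replicate 1 to POCD replicate 2. The difference was -1.44 on the log2 scale (standard error 0.26 from limma), or 36.8% of the control level. In the plot of the scaled values by mouse, the POCD mice fall in the same order in both circRNAs, while control replicates 1 and 3 change places.

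**Figure D1:**
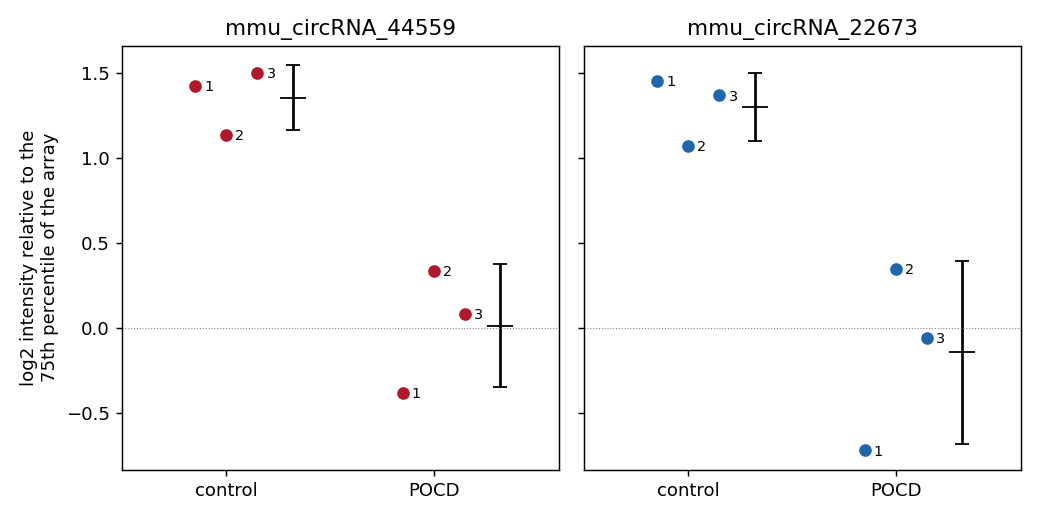
Scaled log2 intensity of circRNA_44559 (left) and circRNA_22673 (right) in each of 3 control and 3 POCD mice, numbered by replicate, with the group mean and SD as black bars. On this scale every control mouse was above 1.0 and every POCD mouse below 0.4 for both circRNAs.

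In the table of normalized log2 values that the authors deposited, circRNA_44559 was at 9.80, 9.50 and 9.77 in control and at 8.04, 8.81 and 8.48 in POCD. The means were 9.69 ± 0.17 (SD, n = 3) and 8.44 ± 0.39 (SD, n = 3), a log2 difference of -1.25. circRNA_22673 was at 9.73, 9.40 and 9.67 in control and at 7.70, 8.69 and 8.31 in POCD. The means were 9.60 ± 0.18 (SD, n = 3) and 8.23 ± 0.50 (SD, n = 3), a log2 difference of -1.37. Both differences were smaller in size in the deposited values than in the scaled intensities, by less than the spread between mice of a group.

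These are the values by which the pair was chosen. Ordered by fold change in the deposited values, circRNA_22673 was in place 4 and circRNA_44559 in place 8 of the 36 circRNAs that were lower by at least 1.5-fold at an unadjusted p under 0.05 (the methods' t-test), which is 0.253% of the 14236 probes. The top 10 ended at a log2 difference of -1.07 with mmu_circRNA_29984, and the next, outside it, was at -1.02. In limma on the scaled intensities, the same thresholds passed 4.82% of the 14144 circRNAs tested in the lower direction, and the pair was among them. Over all these circRNAs, 0 (0.00%) passed a Benjamini-Hochberg adjusted p of 0.05, while an unadjusted p under 0.05 was found for 2048 of the 14144. On these scaled intensities the methods' t-test found 1140 at an unadjusted p under 0.05 and 0 after Benjamini-Hochberg adjustment. A log2 difference at least as low as that of circRNA_44559 was found for 119 circRNAs (0.841%), and at least as low as that of circRNA_22673 for 104 (0.735%).

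The distance between the groups belongs to the same contrast by which the pair was chosen and is also a description only. For circRNA_44559 the lowest control mouse and the highest POCD mouse were 0.80 apart on the log2 scale, and for circRNA_22673 they were 0.72 apart. Groups that did not overlap, with POCD lower, were found for 11.0% of the circRNAs tested. By the width of this gap, circRNA_44559 was in place 2 and circRNA_22673 in place 4 among all of them. Without control replicate 2 they were in places 142 and 165, so these places did not hold when that array was left out. Places without each other array are not given here, so whether this is particular to control replicate 2 is not shown. The SD within groups was 0.29 for circRNA_44559 and 0.41 for circRNA_22673, against a median of 0.21 for the circRNAs tested, so the pair varied more between mice of a group than the median circRNA. Among the 200 circRNAs nearest in mean brightness to circRNA_44559, the median log2 difference was 0.019, and 2 were as low as circRNA_44559. Among the 200 nearest to circRNA_22673 the median was 0.0049, and 3 were as low. In the plot of the difference against brightness, the pair lies below the bulk of circRNAs of its own brightness.

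**Figure D2:**
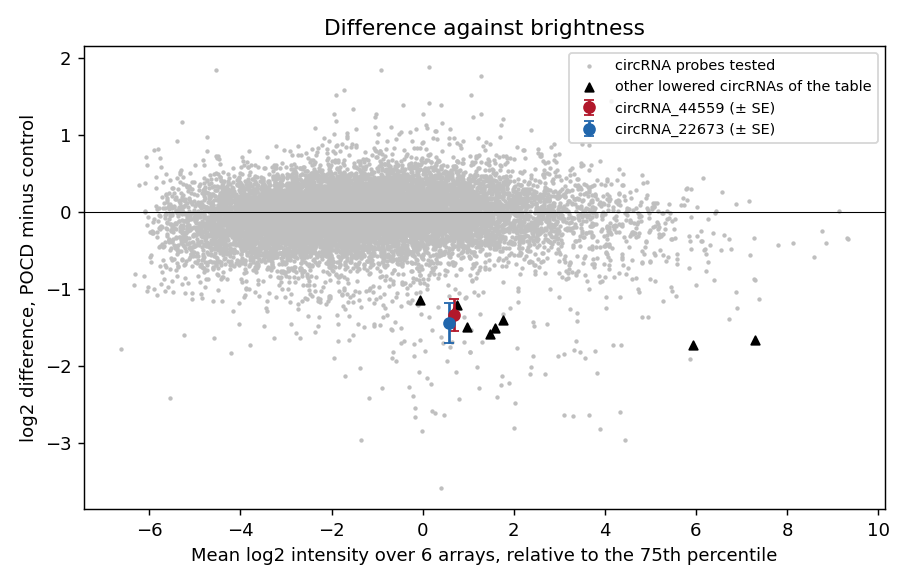
Log2 difference, POCD minus control, against the mean log2 intensity over 6 arrays for each circRNA probe tested (grey), the other lowered circRNAs of the study's list (triangles), and circRNA_44559 and circRNA_22673 with their standard errors. The pair lies at -1.34 and -1.44, with mean intensities between those of the dimmest and the brightest of the other lowered circRNAs.

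The brightness of a spot depends on its probe as well as on the amount of RNA, so its place among other probes is not an order of abundance. circRNA_44559 was brighter than 89.1%, 87.4% and 89.7% of the circRNA probes in the control mice and than 69.7%, 79.2% and 76.0% in the POCD mice. circRNA_22673 was brighter than 89.4%, 86.8% and 88.7% in control and than 64.2%, 79.3% and 74.1% in POCD. Both were thus well inside the brighter part of the array in every mouse, with a higher and tighter place in control. In rank from the brightest probe, circRNA_44559 moved from between 1460 and 1793 in control to between 2962 and 4313 in POCD. circRNA_22673 moved from between 1515 and 1884 to between 2946 and 5097. The median intensity of the spots was between 17.1 and 50.9 times that of their local background for circRNA_44559 and between 14.2 and 53.2 times for circRNA_22673. The local background itself was between 16 and 19 units around circRNA_44559 and between 15 and 18 around circRNA_22673, with a mean of 17.0 in POCD and 18.3 in control for the first and of 16.7 and 17.3 for the second.

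**Figure D3:**
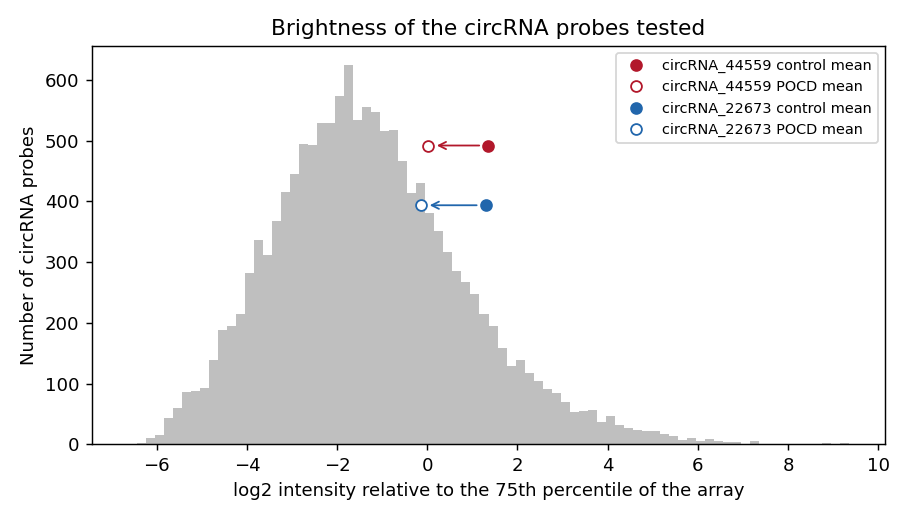
Number of circRNA probes by mean scaled log2 intensity (grey), with arrows from the control mean to the POCD mean of circRNA_44559 and circRNA_22673. In control the pair was at 1.35 and 1.30, above most probes, and in POCD at 0.012 and -0.15, near the 75th percentile.

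The spots around each of the pair were compared with the circRNAs as a whole. Within 2 rows and 2 columns of the spot of circRNA_44559 were 24 other circRNA spots, with a median log2 difference of -0.10 and a range from -1.03 to 0.80, and 16 of them were below 0. Of the 24, 3 (12.5%) were lower past the same fold change and unadjusted p, against 4.82% over all circRNAs tested. Around circRNA_22673 there were 22, with a median of -0.048 and a range from -0.58 to 0.54, of which 14 were below 0 and 0 passed. Over all circRNAs tested the median was -0.032 and 54.5% were below 0. The part of the position on the array in the values of the pair was not tested.

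The 2 circRNAs had a similar pattern from mouse to mouse, and so did some other circRNAs, as given below. As intensities, circRNA_22673 was at 102%, 95.5% and 91.2% of circRNA_44559 in the control mice and at 79.0%, 101% and 90.6% in the POCD mice. These ratios are between different probes and carry no order of amount, so only their change from mouse to mouse is read. The log2 difference between the groups was more negative by 0.10 for circRNA_22673 than for circRNA_44559 (the difference was -0.10, standard error 0.11), less than its standard error. POCD replicate 1 held the lowest ratio, and without this array the difference between the circRNAs was -0.0098. Within the POCD group, replicate 1 was lowest, replicate 3 in the middle and replicate 2 highest for both. Within the control group, replicate 2 was lowest for both, by 0.22 and 0.23 below the group mean.

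After each circRNA was centred on its own mean over the 6 arrays, the root mean square distance between their profiles was 0.12 on the log2 scale. As a measure of technical error between spots, 77 probes that do not read circRNAs and are spotted 10 times had a median SD of 0.072 within an array. This SD holds no error between arrays or between probes, so it is not a floor for the distance. Of the 14124 other circRNAs with values on every array, only 2 were nearer to circRNA_44559 than circRNA_22673 was, and 1 was nearer to circRNA_22673 than circRNA_44559 was. The median distance of the other circRNAs was 0.72 from circRNA_44559 and 0.80 from circRNA_22673. Since both were chosen for a similar fall, part of this likeness comes from the choice. When each group was centred on its own mean, which takes the difference between the groups away, the distance was 0.11, and circRNA_22673 was in place 347 (2.46%) by nearness to circRNA_44559, and circRNA_44559 in place 15 (0.106%) by nearness to circRNA_22673.

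The circRNA most like circRNA_44559 over the 6 arrays was that of the probe ASCRP4002085, at a distance of 0.082. It was much dimmer, with a mean of -2.12 on the scaled log2 intensity. The circRNA most like circRNA_22673 was mmu_circRNA_38328, another of the lowered circRNAs of the list, at a distance of 0.099. mmu_circRNA_38328 was at 1.92, 1.42 and 1.81 in control and at -0.52, 0.84 and 0.35 in POCD. mmu_circRNA_29984 was also close to both, at 0.14 from circRNA_44559 and 0.18 from circRNA_22673. With each group centred on its own mean, circRNA_29984 was in place 266 by nearness to circRNA_44559, ahead of circRNA_22673 in place 347. circRNA_38328 was farther, in place 2333. By nearness to circRNA_22673, circRNA_29984 and circRNA_38328 were in places 4 and 5, ahead of circRNA_44559 in place 15. The likeness within groups was thus not particular to the pair.

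Of the other 8 lowered circRNAs of the list, circRNA_38328 and circRNA_29984 were near the pair in control replicate 2 and the rest were not. For these 6, picked out after their values were seen, control replicate 2 was between 1.08 and 1.34 below the mean of the other control mice on the log2 scale. In the same mouse circRNA_44559 was 0.32 and circRNA_22673 0.34 below the other control mice, circRNA_38328 was 0.44 below and circRNA_29984 0.20 below. Over all circRNAs tested, the median of this difference was 0.015 and the middle 90% lay between -0.67 and 0.59. For the 6, control replicate 2 minus the highest POCD mouse was between -0.058 and 0.18, whereas it was 0.80 and 0.72 for the pair, 0.67 for circRNA_29984 and 0.58 for circRNA_38328. Among the 10 lowered circRNAs of the list, circRNA_44559 had the widest gap between the groups and circRNA_22673 the next with all arrays. This order was lost without control replicate 2: the gap was then 1.09 for circRNA_44559, in place 4 of the 10, and 1.02 for circRNA_22673, in place 7, and the widest was 1.31, for circRNA_31065. Without the same array, the count of circRNAs lower in POCD by at least 1.5-fold at an unadjusted p under 0.05 rose from 682 to 1303 in limma. The log2 differences of the pair without this mouse were -1.45 for circRNA_44559 and -1.55 for circRNA_22673, close to those with all mice.

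**Figure D4:**
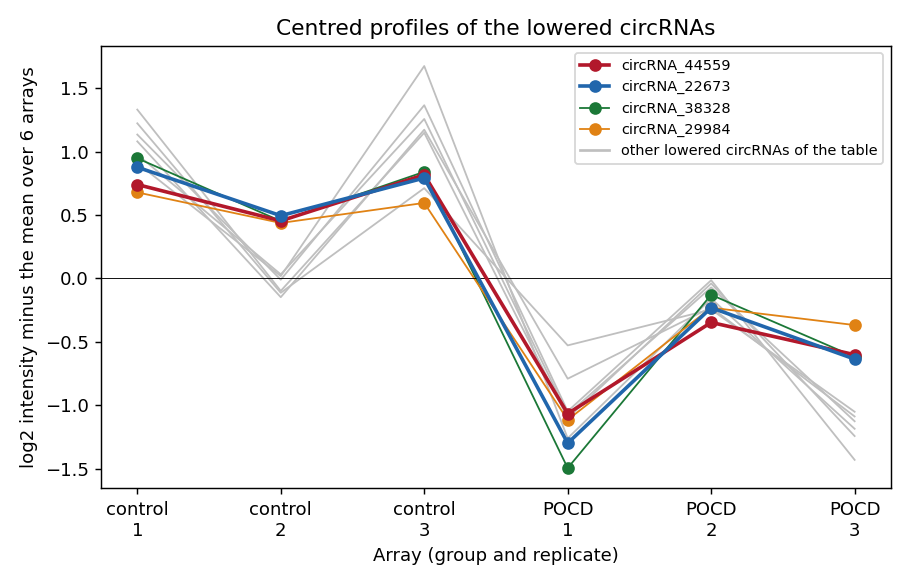
Log2 intensity of the 10 lowered circRNAs of the study's list on each array, each centred on its own mean over the 6 arrays; circRNA_44559, circRNA_22673, circRNA_38328 and circRNA_29984 are coloured and the other 6 are grey. In control replicate 2 the coloured lines stay well above 0, while the grey lines lie near 0.

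All arrays were on 1 slide and in 1 scan. The control arrays and POCD replicate 1 lay in row 1 of the slide, and POCD replicates 2 and 3 in row 2. Within row 1, POCD replicate 1 differed from the control mean by -1.73 for circRNA_44559 and by -2.02 for circRNA_22673. The POCD mice in row 2 differed from the control mean by -1.14 for circRNA_44559 and by -1.15 for circRNA_22673. The pair was lower in POCD in both comparisons. Row 2 held no control array, so group and row cannot be told apart in the comparison across rows. The larger difference within the row rests on 1 mouse. Without POCD replicate 1, the log2 differences were -1.14 for circRNA_44559 and -1.15 for circRNA_22673.

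Neither circRNA changed direction under any processing that was tried. Both were chosen for a fall on these same arrays, so this is a description and not independent support. With groups that did not overlap, leaving out an array could not change the direction. The log2 difference of circRNA_44559 lay between -1.73 and -1.14 and that of circRNA_22673 between -2.02 and -1.15. The smallest differences came without POCD replicate 1, and the largest with the row of the slide in the fit. The plot of the difference under each processing shows these values side by side.

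**Figure D5:**
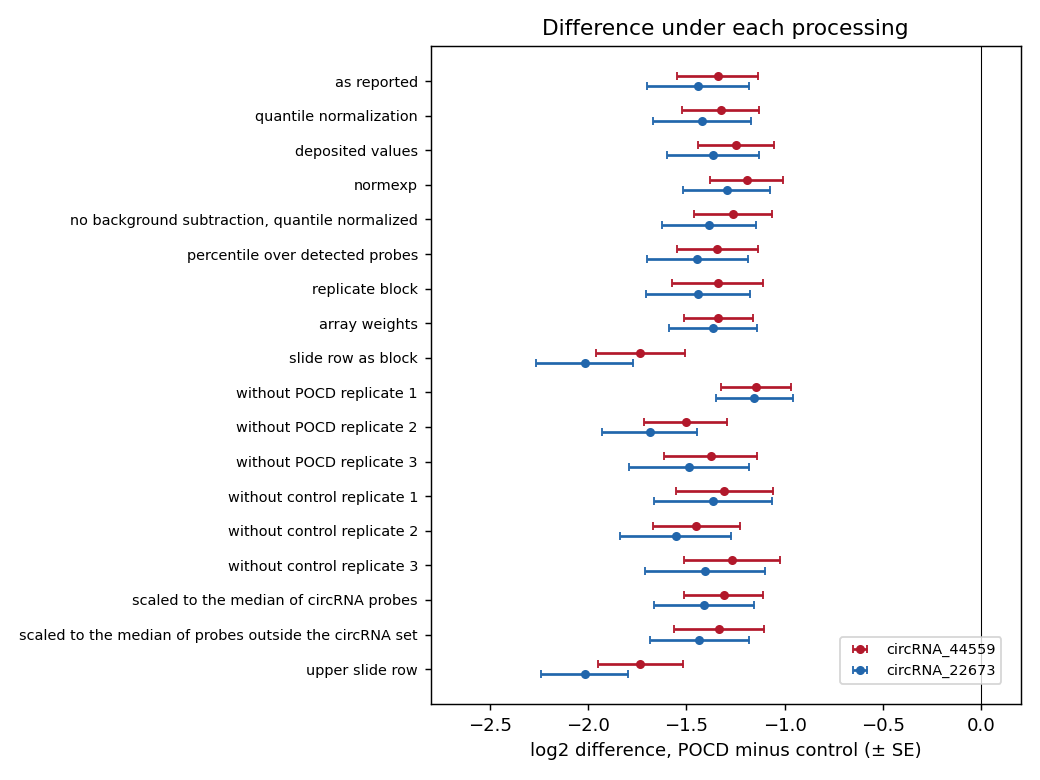
Log2 difference, POCD minus control, with its standard error for circRNA_44559 and circRNA_22673 under the processing reported and each alternative. All values lie below 0, from -2.02 to -1.14.

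The other circRNAs of the study's list that were raised had profiles opposite to the pair, as their choice requires. Their distance from circRNA_44559 lay between 1.14 and 1.35, and from circRNA_22673 between 1.205 and 1.41, for the 10 of them. circRNA_44122 and circRNA_22058, which were also picked for qRT-PCR, had log2 differences of 0.88 and 0.84. circRNA_45921, picked for qRT-PCR from the lowered side, had a log2 difference of -1.66, and its nearest control and POCD mice were 0.0042 apart, against 0.80 and 0.72 for the pair. Without control replicate 2 they were 1.15 apart, against 1.09 and 1.02 for the pair. By qRT-PCR the study reported a significant difference for the pair, circRNA_44122 and circRNA_22058, and not for circRNA_45921. The remaining circRNA of the 6 picked for qRT-PCR was also reported as significantly different. It is not in the study's list, so its array values are not given here. Whether these outcomes relate to the gaps was not tested.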

How the data were processed

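Hippocampal RNA of 3 POCD and 3 control samples was measured on 1-colour arrays (Cy3). The authors deposited scanner files with the intensity of each spot, background-subtracted by Agilent Feature Extraction (version 11.0.1.1, per the submitters' processing notes) and not normalized between arrays, and a table of normalized log2 values. The methods give limma as the tool for the raw data, and state neither a background correction nor a normalization. The deposited log2 values had a rank correlation of at least 0.999 with the scanner values and a median of 7.05 to 7.07 per array. Their median absolute difference from the quantile-normalized log2 median intensity of the spots, without background subtraction, was 0.023.

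Here log2 was taken of the intensity with no pseudocount, spots flagged as uneven or outliers were left out, and each array was reduced by the 75th percentile of its circRNA probes, between 8.06 and 8.42. Probes well above background on 3 or more arrays entered the test; each array had 98.3% to 99.5% of its circRNA probes at that level. The groups were compared with lmFit and eBayes in limma 3.58.1 (R 4.3.3), whose fit was tested on simulated data, with thresholds of 1.5 for the fold change and 0.05 for the unadjusted p. Plots were drawn with matplotlib 3.10.9. With 3 arrays per group, their number limits the precision.

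The circRNAs named are the pair, the other circRNAs of the study's list where a likeness or summary turns on them, and for each of the pair the circRNA most alike. The circRNAs, lists and comparisons were chosen with earlier results of these data known. Alternatives were other normalizations, background corrections, filters, blocks and array weights, and each array left out. Host genes, marker genes and sequences of the circRNAs were not analysed here.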

Additional observations from a re-analysis of the deposited data

How the results depend on the processing

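The log2 differences of circRNA_44559 (-1.34) and circRNA_22673 (-1.44) stayed negative under all 17 alternatives each, which the choice of the pair on these arrays makes likely. They moved by more than the spread between mice only where POCD replicate 1 alone was set against the controls of its row: with the slide row as a block and with the arrays of that row alone they were -1.73 and -2.02, and the difference between the circRNAs went from -0.10 to -0.28 with that block, by construction, since the fit then rests on 1 POCD mouse. The scalings to the median of the circRNA probes or of the probes outside the circRNA set and the row alone were chosen after seeing the data. With each array left out, the differences ranged from -1.50 to -1.14 and from -1.69 to -1.15, the difference between the circRNAs from -0.18 to -0.0098, the distance of the profiles from 0.070 to 0.13, and the mean brightness percentile from 80.3 to 84.3 and from 78.6 to 83.7. The count of circRNAs lower in POCD past the thresholds, 682, depended more on the processing. It was 338 on the deposited values, 295 with normexp, 349 on the median intensity without background subtraction, 165 with the methods' t-test and 36 with that test on the deposited values; the cause was not tested. With an array left out it was lowest, 400, without control replicate 3 and highest, 1303, when control replicate 2 was left out. With the replicate number as a block it was 734. The log2 differences of the pair were -1.34 and -1.44 as without the block, by construction, since each number holds 1 POCD and 1 control array. The labels state no pairing of the samples by number. The deviations of equally numbered arrays had correlations of 0.011, -0.55 and -0.23. These cannot decide whether samples were paired, because the deviations within a group are tied to its own mean. The spots of the pair were at least 14.2 times their local background. With normexp the log2 differences were -1.19 for circRNA_44559 and -1.30 for circRNA_22673. On the median intensity without background subtraction they were -1.26 and -1.39. The part of the background in these values was not tested.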
